A study of Mus musculus with 816 samples.

Results

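The cultures described here were primary mouse microglia kept for 72 h with a mixture of TNFa, P3C and PGE2 and without IFNb. They were chosen by the labels alone, as every culture labelled with that mixture and that time, and were 7 of the 816 samples of the series, 784 of which were cultures. TNFa is tumour necrosis factor alpha, P3C is Pam3CysSerLys4, a synthetic bacterial-type lipopeptide, and PGE2 is prostaglandin E2. The cells were neonatal microglia of a single commercial lot (Sciencell_May16), grown in poly-lysine coated plates, and no genetic change was named in the labels. The comparison groups were 25 untreated cultures of the same lot and time (called None in the labels), 6 cultures with P3C, 3 with TNFa, 8 with PGE2, 8 with TNFa+PGE2, 7 with TNFa+P3C and 7 with P3C+PGE2, so that the 71 cultures covered each way of combining the stimuli. The labels carry a single dose for each condition. It is 0.000004 µg/µl for TNFa and for every mixture that contains it, and 0.001 µg/µl for P3C, PGE2 and P3C+PGE2. The doses of P3C and PGE2 inside a mixture with TNFa are not stated, so a difference in dose and the addition of TNFa cannot be told apart by the labels.

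TNFa binds TNF receptors and P3C binds the Toll-like receptor pair TLR1 and TLR2, and both pathways release NF-κB, a family of transcription factors held in the cytoplasm by IκB proteins. PGE2 is a lipid made from arachidonic acid by cyclooxygenases and PGE synthases, and in microglia it acts mainly through the EP2 and EP4 receptors, which raise cyclic AMP. It is known to shift the cytokines and chemokines that myeloid cells release rather than to switch inflammation on or off. The same mixture is used on human monocyte-derived macrophages as a model of long-lasting inflammation.

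Transcript ends were sequenced and expression is given in CPM, counts per 1e6 mapped reads. The 71 cultures held 1.40 to 38.2 M mapped reads (M for 1e6, median 5.53), and those with the mixture held 3.22 to 10.3 M (median 5.34). The 3 TNFa cultures were among the shallowest, at 1.98 to 2.36 M. The TNFa+P3C cultures held 1.40 to 8.58 M (median 2.76) and included the shallowest of all 71. Of 45581 genes listed, 12781 were above 5 CPM in at least 4 of the 71 cultures and were tested with limma. A gene was called when its Benjamini-Hochberg adjusted p was under 0.05 and its difference on the log2(CPM + 1) scale was at least 1, and only called genes are said below to have risen or fallen. Values after ± are standard errors of that difference. Nothing in the labels says that the cultures came from separate animals or isolations, so p-values measure the spread between wells of 1 lot. In bulk cultures, fewer cells of a type and less RNA per cell cannot be told apart.

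The first principal component of all 71 cultures (20.4% of the variance) separated the 2 plates that held the mixture, while untreated cultures of the other plates overlapped with both. It placed the 4 mixture cultures of the first plate at -41.2 to -38.7 and the 3 of the second at 55.2 to 69.3. The second component (9.06%) separated stimuli, with untreated cultures at -42.1 to -18.3, TNFa at -39.5 to -33.8, PGE2 at -36.1 to -16.2, and the mixture at 36.4 to 42.8. On the second component the 7 cultures of the mixture lay within the range of P3C and TNFa+P3C (32.3 to 49.3) and outside that of P3C+PGE2 (-5.87 to 26.4). Expression of the mixture's cultures correlated at 0.711 to 0.767 across plates (median 0.756, 12 pairs) and at 0.693 to 0.964 within a plate (median 0.952, 9 pairs), so that the lowest pair of all was from 1 plate. No pair of cultures agreed within sampling noise. Values within each plate are therefore given beside the main results. On the first plate the mixture was in edge wells and the untreated cultures in middle wells. On the second the mixture was in middle wells and in a library pool that held no untreated culture, and the untreated cultures were in edge wells. Well position and treatment therefore cannot be told apart within either plate, nor pool and treatment on the second. In addition, 1 of the 7 P3C+PGE2 cultures (replicate 7) stood apart from the other 6. It was the one at -5.87 on the second component, with Pim2 and Slc13a3 at 0 CPM and Marco at 17.9 CPM, where the other 6 had at least 109.4, 27.4 and 901 CPM. In every other culture labelled with P3C, these genes were above every untreated culture, so in them this culture goes against its label. Fpr1 in this culture was at 357 CPM, above every untreated culture (at most 36.3 CPM) and below the other 6 (at least 455 CPM). It was in an edge well and in another library pool, while the other P3C+PGE2 cultures of the second plate were in middle wells. Whether its well received P3C was not tested.

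Markers of microglia were present in all groups. Summed over 10 marker genes they were 2220 to 4938 CPM (median 3678) with the mixture and 975 to 7205 CPM (median 3951) without treatment, most of it Csf1r, the receptor for colony stimulating factor. Of the 10, 0 had a mean below 1 CPM without treatment and 1 had with the mixture. P2ry12, a purine receptor of microglia in the intact brain, was at 0 to 7.93 CPM without treatment and 0 to 0.0968 CPM with the mixture. Markers of other cells were also summed. Those of neutrophils, 9 genes, were 38 to 107.5 CPM with the mixture and 0.213 to 38.2 without. S100a8 made up most of that sum, while Ly6g, Elane and S100a9 were listed at 0 in all 7 mixture cultures. Those of border macrophages, 8 genes, were 1315 to 2178 CPM with the mixture and 296 to 1187 without, carried by Pf4, while Lyve1 was listed at 0 in all cultures of both groups. Of the 5 border macrophage markers tested, Pf4 rose and Mrc1 fell against untreated cultures, so the list did not move in 1 direction. The sums for monocytes and dendritic cells, astrocytes, oligodendrocytes, neurons, fibroblasts and mural cells, endothelial cells and lymphocytes overlapped between the mixture and untreated cultures. For monocytes and dendritic cells the median was nevertheless higher, at 106.9 CPM with the mixture and 48.3 untreated. Of the 5 markers of these cells tested, S100a4 and Xcr1 rose and Itgax fell. The part of other cells in the results below was not tested.

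Adding all of TNFa, P3C and PGE2 changed 973 genes against untreated microglia, which is 7.61% of the genes tested, with 479 higher (3.75%) and 494 lower (3.87%). Among them, 136 of the higher and 43 of the lower genes had no overlap between the 7 and the 25 cultures. Overlap was counted only among called genes, and these were selected on the same cultures. No share over all genes tested is given, so these counts do not show how unusual a lack of overlap was. Mmp9, Marco and Slc13a3 led the rises, and Rgs2, Cd83 and Mmp12 led the falls, among the genes without overlap. Of the 973 genes, 947 differed in the same direction on both plates. Genes were called with the cultures of these plates included, so such agreement, here and below, is no independent evidence. The second plate alone called 284 genes. The median difference over all genes tested was -0.12, and after centring each culture on its median it was 0.07 with 655 genes higher and 343 lower, so the balance of rises and falls depends on the scaling and changes are best read against that shift. With plate as a term the split was 500 higher and 738 lower, and on the first plate alone 718 and 1419.

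**Figure D1:**
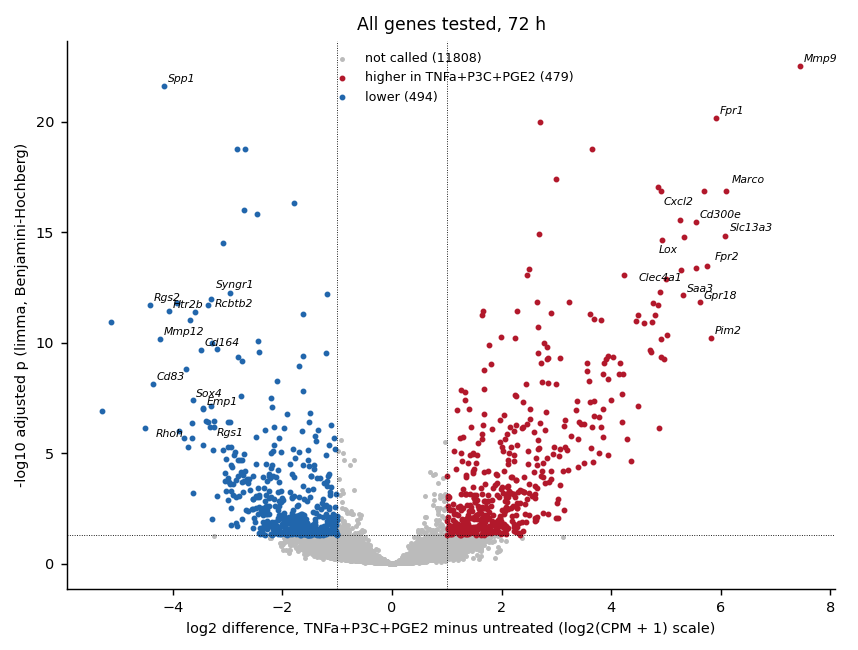
Each point is 1 of the 12781 genes tested at 72 h; the x axis is the log2 difference between the 7 mixture cultures and the 25 untreated cultures on the log2(CPM + 1) scale and the y axis is -log10 of limma's adjusted p. Coloured points are the 479 genes called higher and the 494 called lower, and the 24 labelled genes are those with the largest differences among genes without overlap, led by Mmp9 at 7.45 and Rgs2 at -4.42.

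The largest rise was in Mmp9, a secreted gelatinase that cuts basement membrane. It was at 0 to 13.7 CPM (median 0.54) in untreated cultures and at 260.2 to 462 CPM (median 329) in the 7 cultures of the mixture. Every mixture culture was above every untreated culture, and the log2 difference was 7.45 ± 0.43 (SE, adjusted p = 2.94e-23), with 7.0 on the first plate and 7.59 on the second. Marco, a scavenger receptor for bacteria and particles, was at 4.45 to 86 CPM (median 33.9) without treatment and at 1241 to 3193 CPM (median 2654) with the mixture. The groups did not overlap, the mean was 62.6-fold higher and the log2 difference was 6.1 ± 0.47 (SE, adjusted p = 1.33e-17). Other receptors of innate immunity followed. The formyl peptide receptor Fpr1 rose from 0.481 to 36.3 CPM (median 7.9) to 340.2 to 647 CPM (median 527), again without overlap, by 5.91 ± 0.38 (SE, adjusted p = 6.62e-21). Its relative Fpr2 rose by 5.75 and the lectins Clec4a1, Clec4a2 and Clec4e by 5.54, 4.19 and 4.9. Cd300e, an activating receptor of myeloid cells, was at 0 to 4.96 CPM (median 0.159) without treatment and 32.1 to 95.2 CPM (median 75.5) with the mixture. No culture overlapped, and it rose by 5.55 ± 0.46 (SE, adjusted p = 3.42e-16).

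The remaining genes among the 12 largest rises without overlap were Slc13a3, a carrier of dicarboxylates such as succinate, Pim2, a survival kinase, Cxcl2, a chemokine for neutrophils, Gpr18, a lipid-sensing receptor, Lox, a collagen cross-linking enzyme, and Saa3, an acute-phase protein. Their log2 differences lay between 5.31 and 6.07. Saa3 was at 14.8 to 558 CPM (median 91.9) in untreated cultures and 2281 to 3635 CPM (median 2956) with the mixture. The groups were apart on the whole, while the plates differed in size, with 3.79 on the first and 6.85 on the second.

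**Figure D2:**
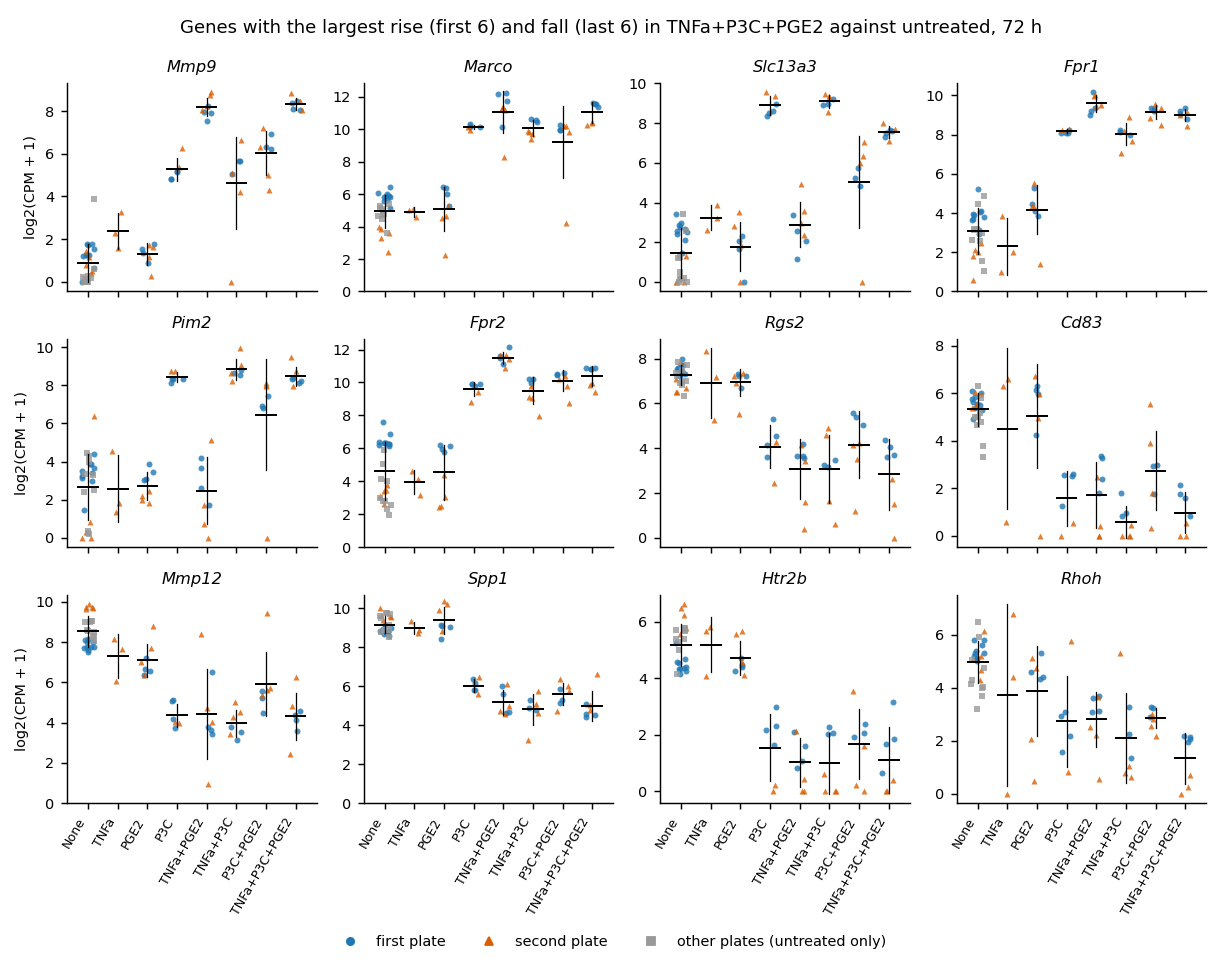
Each panel shows 1 gene, with log2(CPM + 1) on the y axis and the 8 conditions of 72 h on the x axis; points are cultures, marked by plate, with the mean and SD of each condition. Mmp9, Marco and the other risen genes are high in the 7 mixture cultures and near 0 or low in the 25 untreated ones, and the fallen genes show the reverse order.

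The largest falls without overlap were in Rgs2 and Cd83. Rgs2, which shortens signals of G protein-coupled receptors, was at 80.6 to 253 CPM (median 159) in untreated cultures and 0 to 19.5 CPM (median 11.2) with the mixture. The groups did not overlap, and the gene fell to a log2 difference of -4.42 ± 0.45 (SE, adjusted p = 1.99e-12). Rgs1, of the same family, fell as well (-3.32). Cd83, a surface protein of activated antigen-presenting cells, was at 8.82 to 79.2 CPM (median 43.2) without treatment and 0 to 3.34 CPM (median 0.749) with the mixture, a difference of -4.36 ± 0.57 (SE, adjusted p = 7.48e-09) without overlap. Spp1 (osteopontin) was at 363 to 1038 CPM (median 513) in untreated cultures and 20.1 to 99.1 CPM (median 26.4) with the mixture. All 7 were below the lowest untreated culture, and the difference of -4.16 ± 0.25 (SE, adjusted p = 2.36e-22) was alike on the plates (-4.19 and -4.17). Mmp12, the macrophage elastase, fell from 179 to 961 CPM (median 312) to 4.49 to 75.4 CPM (median 19.6), with a difference of -4.23 ± 0.48 (SE, adjusted p = 6.93e-11). The other falls among the 12 largest were in Htr2b (a serotonin receptor), Rhoh, Sox4 (a transcription factor), Cd164, Emp1, Rcbtb2 and Syngr1, at log2 differences between -4.07 and -3.31.

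Gene lists are described next by how many of the members tested were called, against the 3.75% of all genes called higher and 3.87% called lower, and by their median beside -0.12 for all genes. Of 17 receptors and adaptors of TNF and Toll-like receptor signalling, 5 rose and 0 fell, with a median of 0.41. Tlr2, the common partner in the P3C receptor, was at 0 to 42.4 CPM (median 20.9) without treatment and 86.3 to 124 CPM (median 96.5) with the mixture, without overlap, and rose by 2.51 ± 0.36 (SE, adjusted p = 1.06e-07). The other partner Tlr1 rose by 2.26, the co-receptor Cd14 by 2.37, the TNF receptor Tnfrsf1b by 1.11, and Irak3, which restrains Toll-like receptor signals, by 3.9. Of 17 NF-κB subunits and inhibitors, 8 rose and 0 fell, with a median of 1.22. The inhibitor Nfkbia (IκBα) was at 31 to 198 CPM (median 106) in untreated cultures and 390.4 to 578 CPM (median 507) with the mixture. No cultures overlapped, and it rose by 2.25 ± 0.25 (SE, adjusted p = 6.19e-11). Nfkbiz, a nuclear IκB protein that switches on secondary genes, rose by 4.85, Bcl3 by 2.78, the A20-binding proteins Tnip3 and Tnip1 by 2.96 and 1.97, Traf1 by 3.14, Birc3 by 2.46 and the subunit Relb by 1.89.

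Of 12 inflammatory cytokines tested (of 21 listed), 5 rose and 2 fell, with a median of 1.67. Il1b was at 0 to 10.4 CPM (median 2.3) without treatment and 22.1 to 114 CPM (median 74.5) with the mixture, without overlap, and rose by 4.46 ± 0.48 (SE, adjusted p = 1.08e-11). Tnf itself was at 0.209 to 123 CPM (median 52.6) and 327 to 783 CPM (median 546), a rise of 4.0 ± 0.55 (SE, adjusted p = 4.14e-08), again without overlap. Ebi3, Lif and Il10 rose by 2.6, 2.71 and 2.18, the last 2 with overlap between groups and with means of no more than 8.63 CPM. Il15 and Il18 fell (-2.29 and -2.03). Il6 was not among the genes tested, with 2.09 CPM as its highest value with the mixture. Of 17 chemokines, 7 rose and 0 fell, with a median of 0.72. Cxcl2 was at 0 to 14.5 CPM (median 4.55) in untreated cultures and at 144 to 501 CPM (median 179) with the mixture, and rose by 5.69 ± 0.44 (SE, adjusted p = 1.33e-17) without overlap. Its neighbours Cxcl1 and Cxcl3, which draw neutrophils through the same receptor, rose by 2.86 and 2.74, and the macrophage chemokines Ccl9, Ccl3, Ccl5 and Ccl6 by 2.83, 2.21, 1.49 and 1.38. For Ccl3 and Ccl5 the first plate gave 0.56 and 0.17 and the second 3.94 and 3.02. Ccl2, the main chemokine for monocytes, did not pass the test (-0.58 ± 0.59 (SE, adjusted p = 0.656)).

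The promoters of 4 of these genes and of an interferon target described further below are shown because they hold the letters that NF-κB or interferon regulatory factors are known to bind. The windows are from RefSeq on GRCm38.p6 (250 bases before to 50 after the start site, 5′ to 3′ on the strand of the gene). Capitals mark each match to the κB letters (GGGA, any 2 bases, TTCC) or to the interferon element (GAAA, any 2 bases, GAAA), on either strand, and where matches overlap the run is shown whole.
Cxcl1, chr5:90890995-90891294, plus strand: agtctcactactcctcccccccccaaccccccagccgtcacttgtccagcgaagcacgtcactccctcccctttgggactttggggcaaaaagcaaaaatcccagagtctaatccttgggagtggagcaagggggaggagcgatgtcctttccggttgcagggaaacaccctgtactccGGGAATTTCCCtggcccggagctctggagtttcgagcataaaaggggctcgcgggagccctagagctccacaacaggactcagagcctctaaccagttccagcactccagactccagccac
Cxcl2, chr5:90903649-90903948, plus strand: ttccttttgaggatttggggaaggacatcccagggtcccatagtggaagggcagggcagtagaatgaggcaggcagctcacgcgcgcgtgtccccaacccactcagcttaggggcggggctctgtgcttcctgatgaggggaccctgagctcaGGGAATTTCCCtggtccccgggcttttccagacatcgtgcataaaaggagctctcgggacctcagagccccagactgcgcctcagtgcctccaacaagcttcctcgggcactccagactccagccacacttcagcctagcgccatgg
Cxcl3, chr5:90785851-90786150, plus strand: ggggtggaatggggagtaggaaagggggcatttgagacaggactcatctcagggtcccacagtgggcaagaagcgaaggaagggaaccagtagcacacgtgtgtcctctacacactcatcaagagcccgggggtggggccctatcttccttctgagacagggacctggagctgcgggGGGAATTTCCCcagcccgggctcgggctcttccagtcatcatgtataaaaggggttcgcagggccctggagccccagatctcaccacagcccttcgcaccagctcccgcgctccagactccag
Nfkbia, chr12:55492598-55492897, minus strand: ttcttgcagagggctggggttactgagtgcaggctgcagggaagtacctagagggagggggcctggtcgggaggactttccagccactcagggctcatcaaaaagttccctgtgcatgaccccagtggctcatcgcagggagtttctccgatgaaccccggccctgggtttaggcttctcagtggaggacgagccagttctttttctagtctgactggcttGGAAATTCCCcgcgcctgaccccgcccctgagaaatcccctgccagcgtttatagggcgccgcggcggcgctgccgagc
Ifit1, chr19:34640639-34640938, plus strand: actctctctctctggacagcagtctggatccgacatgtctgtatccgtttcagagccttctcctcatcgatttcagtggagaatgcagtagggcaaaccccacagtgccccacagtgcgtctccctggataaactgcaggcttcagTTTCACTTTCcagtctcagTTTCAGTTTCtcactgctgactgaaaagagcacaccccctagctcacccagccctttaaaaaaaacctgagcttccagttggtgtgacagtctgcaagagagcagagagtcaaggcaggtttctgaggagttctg
The κB run was the same 11 letters in Cxcl1, Cxcl2 and Cxcl3, from 71 to 61, 97 to 87 and 73 to 63 bases before the start, and read on both strands as a pair of overlapping matches. In Nfkbia it lay 29 to 20 bases before the start. These letters were in 1.467% of 32851 promoter windows and in 1.7% of the 8825 tested genes with a window. Among genes called higher with the mixture, 10 of 359 windows held them (2.786%), and among genes called lower 5 of 363 (1.377%). In the gene lists, 3 of 14 NF-κB genes and 4 of 12 chemokines held them. Of these, Nfkbia, Cxcl1, Cxcl2 and Cxcl3 rose with the mixture, while Nfkb2, Cyld and Cxcl10 were not called. The interferon element was in 3.443% of these 32851 windows and in 10 of 17 windows of interferon-stimulated genes, and Ifit1 held it at 104 to 95 and 85 to 76 bases before the start. A match describes letters and was not tested as a binding site.

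Enzymes of nitric oxide, itaconate and redox metabolism rose in 11 of 20 cases with no fall, and the median was 1.21. Irg1, which makes itaconate, was at 0 to 15.2 CPM (median 2.64) without treatment and 45.6 to 126 CPM (median 95.8) with the mixture, without overlap, and rose by 4.76 ± 0.48 (SE, adjusted p = 1.60e-12). Sod2, the mitochondrial superoxide dismutase, was at 37 to 188 CPM (median 98.1) and 802 to 1492 CPM (median 1246). It rose by 3.65 ± 0.25 (SE, adjusted p = 1.68e-19) without overlap and by 3.47 and 3.69 on the plates. The cystine carrier Slc7a11 rose by 3.86 and arginase (Arg1) by 3.39, while the NADPH oxidase subunits Cybb and Ncf1 rose by 1.54 and 1.57. Hmox1 and Txnrd1 rose over all cultures (1.3 and 1.02), but this rested on the first plate, where the differences were 2.02 and 2.07 against 0.14 and -0.00312 on the second. Nos2, the inducible nitric oxide synthase, did not pass the test (1.11 ± 0.74 (SE, adjusted p = 0.443)).

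Of 19 glycolysis and hypoxia genes tested, 14 rose and 0 fell, all 19 differences were positive, and the median was 1.54. Aldoa (aldolase) was at 671 to 1771 CPM (median 1000.3) in untreated cultures and 2748 to 3421 CPM (median 3307) with the mixture, without overlap, and rose by 1.67 ± 0.17 (SE, adjusted p = 3.53e-12), with 1.68 and 1.63 on the plates. Lactate dehydrogenase Ldha rose by 1.55 ± 0.27 (SE, adjusted p = 1.26e-05), also without overlap, the glucose carrier Slc2a1 by 2.49, pyruvate kinase Pkm by 1.33 and hexokinase Hk2 by 2.41. The oxygen-sensing enzyme Egln3, the oxidoreductase Ero1l and Hif1a, the oxygen-regulated transcription factor, rose by 3.63, 3.22 and 2.01. Of 15 genes of the unfolded protein and amino acid response, 5 rose and 1 fell, with a median of 0.48. Asns, Trib3, Herpud1, Chac1 and Atf4 rose, and Atf3 fell (-1.12). Chac1 and Atf4 differed by 4.66 and 1.64 on the first plate and by -0.17 and -0.18 on the second.

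Secreted defence proteins of the kind that neutrophils also make were tested for 6 of 12 genes, of which 4 rose and 0 fell, with a median of 4.33. Besides Saa3, they were S100a8 (a calgranulin), Slpi (a protease inhibitor) and Lcn2 (lipocalin, which binds iron carriers of bacteria). S100a8 was at 0 to 9.16 CPM (median 0.609) without treatment and 37.1 to 101 CPM (median 58) with the mixture, without overlap, and rose by 4.89 ± 0.48 (SE, adjusted p = 4.90e-13). Lcn2 was at 2.87 to 62.8 CPM (median 12.8) and 98.4 to 275 CPM (median 162), likewise apart, and rose by 3.81 ± 0.41 (SE, adjusted p = 9.30e-12). Slpi rose by 4.85. Of 15 metalloproteinases, plasminogen system genes and inhibitors, 5 rose and 2 fell, with a median of 0.64. Besides Mmp9, the risen genes included Mmp14, Mmp8 and Plaur, by 3.61, 2.84 and 1.73, and Mmp13 fell with Mmp12 (-2.2). Of 13 complement genes, 3 rose and 1 fell, with a median of -0.38. C3, the central component, was at 0 to 9.33 CPM (median 0.996) without treatment and 52.1 to 111 CPM (median 87.4) with the mixture, without overlap, and rose by 4.93 ± 0.43 (SE, adjusted p = 2.34e-15). Properdin (Cfp) rose by 2.5 and the receptor subunit Itgam by 1.76, and C1qc fell (-2.07).

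**Figure D3:**
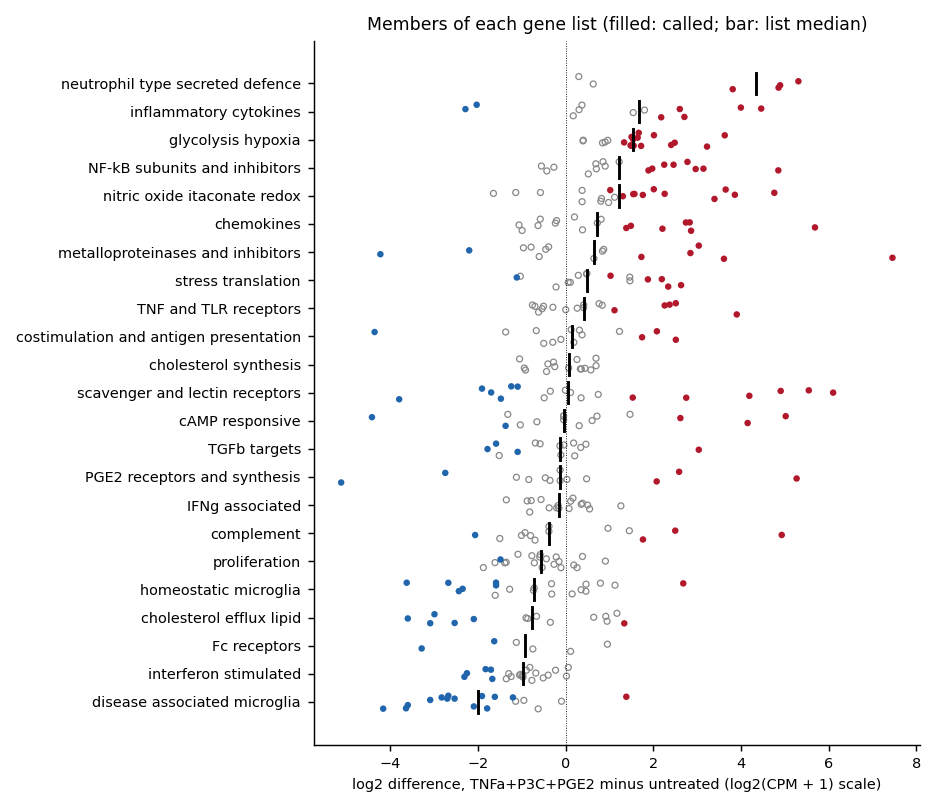
Each row is a gene list and each point a member, placed by its log2 difference between the mixture and untreated cultures (log2(CPM + 1) scale); filled points were called and the bar is the list median. Lists such as glycolysis and hypoxia (median 1.54) lie to the right of 0, and the disease-associated list (median -2.0) lies to the left.

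Genes of disease-associated microglia, the program that microglia take on near plaques and that Trem2 and Apoe mark, were lower for the most part. Of 18 tested, 13 fell and 1 rose (Ccl6), with a median of -2.0. Apoe, the main lipid carrier of the brain, was at 14925 to 56911 CPM (median 36372) in untreated cultures and 2407 to 6738 CPM (median 2873) with the mixture. All 7 were below the lowest untreated culture, the mean was 8.88-fold lower, and the difference was -3.09 ± 0.27 (SE, adjusted p = 3.15e-15). Trem2, a lipid-sensing receptor, was at 473 to 939 CPM (median 689) and 69.5 to 156 CPM (median 115), without overlap, with a difference of -2.68 ± 0.19 (SE, adjusted p = 1.68e-19), and -2.51 and -2.7 on the plates. Gpnmb was at 2069 to 9497 CPM (median 4583) without treatment and 554 to 983 CPM (median 632) with the mixture, again apart, and fell to -2.83 ± 0.20 (SE, adjusted p = 1.68e-19). The growth factor Igf1 fell (-2.7), as did the lipase Lpl and the lipid carrier Fabp5 (-3.6 and -2.1), the lysosomal proteases Ctsb and Ctsd (-1.79 and -1.62), the integrin Itgax (-3.64) and the receptors Axl and Clec7a (-2.53 and -1.91).

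Of 19 homeostatic microglia genes, 6 fell and 1 rose, with a median of -0.72. Trem2 was among those that fell, as were P2ry13, Gpr34, Mef2c and Tgfbr1, with -3.63, -2.35, -1.59 and -1.59 for the last 4. The difference of Gpr34 was -4.72 on the first plate and 0.20 on the second. Aif1, which bundles actin, was the member that rose (2.68). Cx3cr1, the fractalkine receptor, did not pass the test, with -1.61 ± 0.67 (SE, adjusted p = 0.14), and went in opposite directions on the plates (-3.67 and 0.84). Of 18 scavenger and lectin receptors, 6 rose and 6 fell, with a median of 0.05. Marco, Clec4a1, Clec4a2, Clec4a3, Clec4e and Olr1 rose, whereas Mrc1 (the mannose receptor), Clec7a, Cd68, Stab1, Scarb2 and Colec12 fell, at -3.8 for Mrc1 and -1.7 for Cd68. Of 6 Fc receptor genes, 2 fell. Fcgr2b, the inhibitory receptor for antibodies, was at 91.5 to 582 CPM (median 329) without treatment and 2.82 to 60.8 CPM (median 38.4) with the mixture, without overlap, at -3.29 ± 0.38 (SE, adjusted p = 1.09e-10), and Fcgr3 fell at -1.63. Of 14 cholesterol efflux and lipid genes, 5 fell and 1 rose (Abca1, 1.34), with a median of -0.77, and the 5 included Pparg at -2.99, while 0 of 15 cholesterol synthesis genes were called.

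Of 22 interferon-stimulated genes tested, 0 rose and 5 fell, with a median of -0.98, and 20 of the differences were negative. Irf9, a part of the interferon transcription complex, was at 39.1 to 517 CPM (median 149.9) in untreated cultures and 11 to 76.7 CPM (median 33.8) with the mixture, with overlap, and fell to -2.25 ± 0.44 (SE, adjusted p = 0.000105). Rtp4, Oasl2, Stat2 and Usp18 fell at -2.31, -1.83, -1.71 and -1.67. Of 17 genes associated with interferon gamma, 0 were called (median -0.16), and of 20 proliferation genes 1 fell (median -0.56). In 13 genes of PGE2 synthesis, breakdown, transport and reception, 3 rose and 2 fell. Ptges, the inducible PGE2 synthase, was at 0.0695 to 32.4 CPM (median 3.94) without treatment and 71.8 to 265 CPM (median 218) with the mixture, without overlap, and rose by 5.27 ± 0.49 (SE, adjusted p = 5.11e-14). Hpgd, the enzyme that inactivates prostaglandins, fell from 4.13 to 309 CPM (median 124) to 1.55 to 5.32 CPM (median 2.27), with -5.12 ± 0.55 (SE, adjusted p = 1.11e-11). The ranges met at their ends. Ptgs2 (cyclooxygenase 2) and the exporter Abcc4 rose by 2.59 and 2.07, and Ptgs1 fell (-2.75). The receptor genes Ptger2 and Ptger4 did not pass the test (-0.13 and -0.84). Of 15 genes known to respond to cyclic AMP, 3 rose (Thbs1, Vegfa and Pde4b) and 2 fell (Rgs2 and Sik1). Of 14 genes of costimulation and antigen presentation, Cd274, Cd40 and Cd69 rose and Cd83 fell, and of 14 targets of TGF-β 1 rose and 3 fell.

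The study sorted genes into co-expression modules on cultures of this series, so their counts are no independent evidence. Whether the 72 h mixtures were among those cultures is not stated in the sources used here. Of 8 modules counted, YE_turquoise had 65 of 107 tested members higher and 0 lower, CY_turquoise 35 of 38 and 0, CY_blue 26 of 35 and 0, CY_yellow 22 of 30 and 0, CY_brown 18 of 30 and 0, and CY_red 9 of 27 and 0. BR_turquoise had 0 of 141 higher and 19 lower, and PI_turquoise had 0 of 37 higher and 2 lower.

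The mixture was then compared with conditions that lacked 1 or 2 of its stimuli. These comparisons share the 7 mixture cultures, and their results are given side by side and not correlated. Against P3C alone, 70 genes were called (0.548% of those tested, 20 higher, or 0.156%, and 50 lower, or 0.391%), all 70 in the same direction on both plates. The second plate alone called 10 genes. After centring each culture on its median the split was 42 higher and 34 lower. S100a8 was at 0.49 to 3.53 CPM (median 1.57) with P3C and 37.1 to 101 CPM (median 58) with the mixture. The groups were apart, and the mixture was 35.6-fold higher in the mean, with a log2 difference of 4.57 ± 0.62 (SE, adjusted p = 7.96e-07). Thbs1 (thrombospondin), an adhesive glycoprotein that activates TGF-β, was at 21.2 to 92.8 CPM (median 54.9) with P3C and 466 to 1396 CPM (median 1042) with the mixture, likewise apart, and was higher by 4.09 ± 0.73 (SE, adjusted p = 0.00029). Sprr2d (an epithelial-type envelope protein), Arg1 and Trem3 completed the 5 largest rises, at 4.1, 3.77 and 3.66. Ccl2 was at 27 to 165 CPM (median 146) with P3C and 0.175 to 13 CPM (median 6.55) with the mixture. No culture overlapped, and the mixture was lower by -4.38 ± 0.76 (SE, adjusted p = 0.00021), with -3.98 and -4.37 on the plates. Fscn1 (fascin, which bundles actin), Avil, Rtp4 and Nrxn2 were the other large falls, at -4.25, -3.93, -3.87 and -3.7. Lpl, Ero1l, Il10, Ptgs2 and Atf4 were lower as well, and Mmp9 was higher by 3.06. The 0.000004 and 0.001 µg/µl on the labels of these conditions differ, so the comparison holds stimulus and stated dose together. On the first plate the mixture was in edge wells and P3C in middle wells, so well position and the added stimuli cannot be told apart there. On the second plate both were in middle wells of the same pool, with only 2 P3C cultures.

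**Figure D4:**
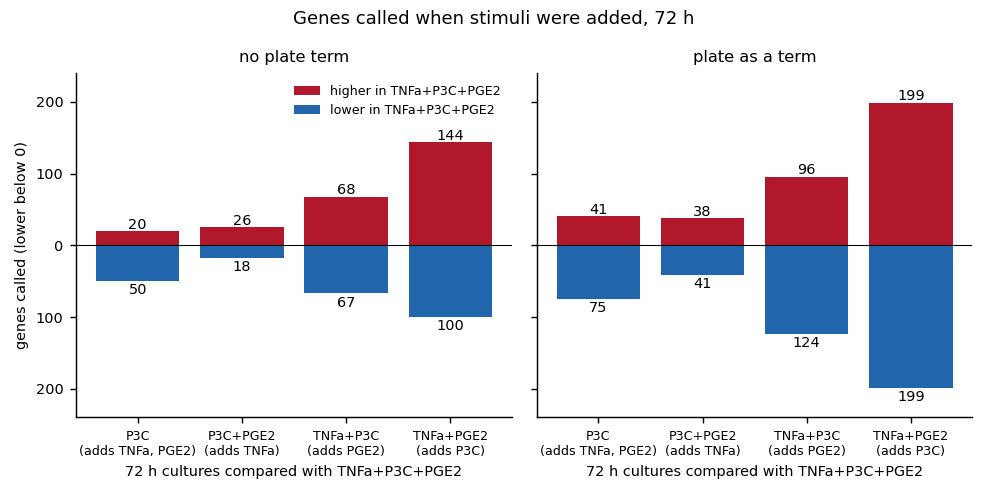
Bars give the genes called higher (above 0) and lower (below 0) in the mixture against 72 h cultures that lacked 1 or 2 of its stimuli (left, without a plate term; right, with plate as a term). Without the term, the number called was 44 against P3C+PGE2, 70 against P3C, 135 against TNFa+P3C and 244 against TNFa+PGE2.

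Setting the mixture against TNFa+P3C, which carries the same labelled dose, asks what differed with PGE2. On the first plate the mixture was in edge wells and TNFa+P3C in middle wells, and on the second they were in different library pools, so well position or pool and PGE2 cannot be told apart within a plate. Depth differed as well, with a median of 2.76 M mapped reads for TNFa+P3C and 5.34 M for the mixture. The comparison called 135 genes (1.06%), 68 higher and 67 lower, all in the same direction on both plates, and 88 without mixture replicate 2 or 89 without replicate 4. The second plate alone called 29 genes. Thbs1 was at 6.88 to 46.2 CPM (median 30.5) with TNFa+P3C and 466 to 1396 CPM (median 1042) with PGE2 added. The groups were far apart, the mean was 34.3-fold higher, and the log2 difference was 5.26 ± 0.70 (SE, adjusted p = 2.75e-07). Across all 8 conditions its mean was 1176 CPM with PGE2, 3666 with P3C+PGE2, 4049 with TNFa+PGE2 and 972 with the mixture, against 47.5 untreated, 76.6 with TNFa, 58.1 with P3C and 28.3 with TNFa+P3C. By their means all conditions with PGE2 were above all without it, and the mixture had the lowest mean of the 4 with PGE2. It did not pass the test against TNFa+PGE2 (-2.08 ± 0.68 (SE, adjusted p = 0.0946)) or P3C+PGE2 (-1.95 ± 0.70 (SE, adjusted p = 0.406)), although its cultures did not overlap with either. Arg1 was at 0 to 6.63 CPM (median 1.81) with TNFa+P3C and 11.7 to 129 CPM (median 83.2) with the mixture, without overlap, at 4.38 ± 0.79 (SE, adjusted p = 0.000235). Mmp9 rose with PGE2 from 0 to 100.1 CPM (median 33.8) to 260.2 to 462 CPM (median 329), again apart, at 3.7 ± 0.54 (SE, adjusted p = 3.44e-06). Mmp8 (a collagenase), Npy (neuropeptide Y) and Sdc1 (a heparan sulphate proteoglycan) were the other named rises, at 4.52, 4.07 and 3.76. For Npy the plates gave 1.84 and 5.98, and for Mmp8 2.54 and 6.3.

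Of 17 chemokines, 4 were lower and 1 higher when PGE2 was added, against 0.524% and 0.532% of all genes. Ccl2 was at 37.3 to 235 CPM (median 149) with TNFa+P3C and 0.175 to 13 CPM (median 6.55) with the mixture. It fell without overlap to -4.67 ± 0.73 (SE, adjusted p = 1.97e-05), and the level with the mixture lay in the range of untreated cultures (0 to 46.2 CPM). Ccl3 was at 447 to 953 CPM (median 741) and 121 to 251 CPM (median 140.1), also apart, at -2.22 ± 0.61 (SE, adjusted p = 0.0481). Ccl5 and Ccl7 fell by the same test (-2.26 and -2.98), and Ccl6 rose (1.74). Among 12 cytokines, Il10, which limits inflammation, was at 4.23 to 68.2 CPM (median 56.8) with TNFa+P3C and 0 to 25.3 CPM (median 5.33) with the mixture, with some overlap, and fell to -2.86 ± 0.54 (SE, adjusted p = 0.000489). Il1b and Lif rose (2.3 and 2.1), and Tnf did not pass the test (-0.81 ± 0.69 (SE, adjusted p = 0.756)). Ptgs2 was at 22.7 to 219.5 CPM (median 90.7) with TNFa+P3C and 0.763 to 35.7 CPM (median 5.94) with the mixture, and fell to -3.0 ± 0.62 (SE, adjusted p = 0.00241).

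Of 22 interferon-stimulated genes tested against TNFa+P3C, 21 differences were negative with a median of -1.42 (0.01 over all genes), and Rtp4 and Ifit1 were called. Ifit1, whose promoter is shown above, was at 64.3 to 221 CPM (median 89.4) with TNFa+P3C and 2.25 to 30.4 CPM (median 17.3) with the mixture, without overlap, at -3.17 ± 0.71 (SE, adjusted p = 0.00761) and with -1.59 and -5.02 on the plates. Rtp4 was at 35 to 100.4 CPM (median 67.9) and 1.34 to 11 CPM (median 7.67), likewise apart, at -3.46 ± 0.67 (SE, adjusted p = 0.000921). In the 17 interferon gamma genes, Socs1 and Gbp8 fell (-3.27 and -2.0), and the median was -1.13. Of the genes called lower with PGE2, 5 of 48 promoter windows held the interferon element (10.42%), as did 4 of 49 of those called higher (8.163%). Of 15 stress-response genes 3 fell, Ddit3, Gadd45a and Atf4, at -2.54, -2.02 and -1.3. Trem2 was at 15 to 68.1 CPM (median 42.9) with TNFa+P3C and 69.5 to 156 CPM (median 115) with the mixture, without overlap, and rose by 1.41 ± 0.23 (SE, adjusted p = 5.06e-05), so that it stood between TNFa+P3C and untreated cultures. Clec7a and Csf1r rose as well (2.01 and 1.46), and Pf4, a platelet-type chemokine of tissue macrophages, rose by 3.14 ± 0.41 (SE, adjusted p = 2.59e-07), from 51.8 to 377 CPM (median 161) to 932 to 1827 CPM (median 1584). The remaining named falls were Tmtc4, Avil and Prr5l at -4.11, -3.68 and -3.28.

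**Figure D5:**
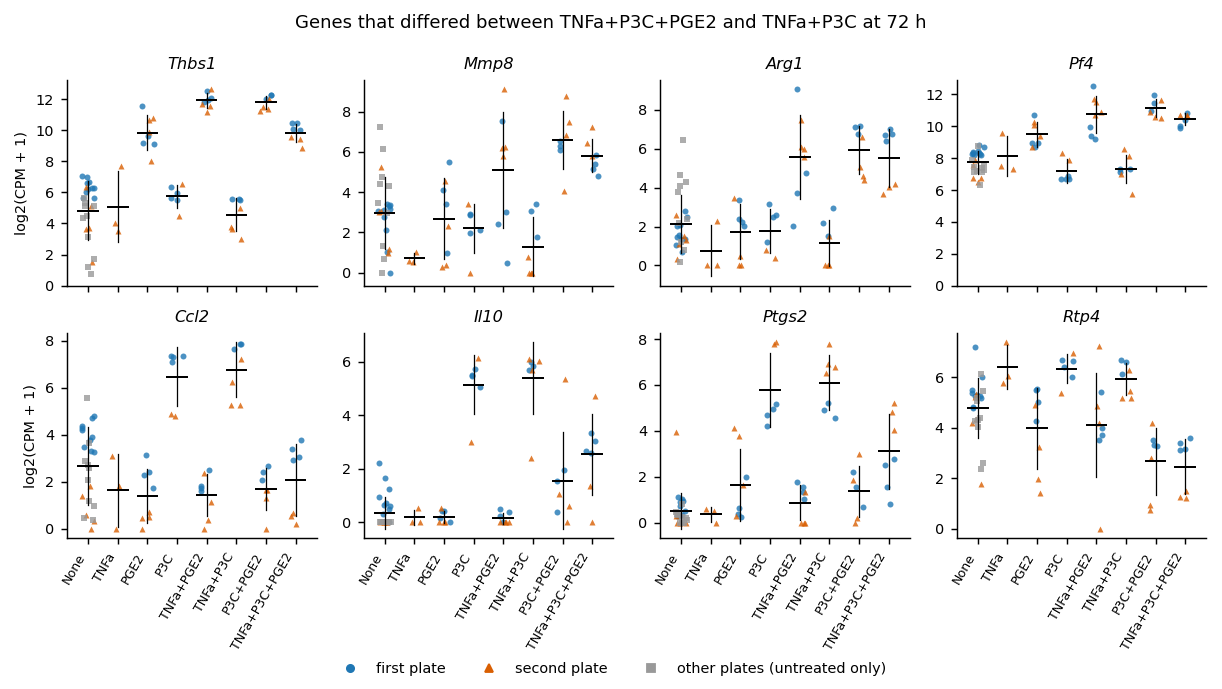
Each panel shows 1 gene that differed between TNFa+P3C and the mixture, with log2(CPM + 1) on the y axis and the 8 conditions of 72 h on the x axis; points are cultures, marked by plate, with the mean and SD of each condition. Thbs1 is high in every condition with PGE2, and Ccl2 is high with P3C and TNFa+P3C and low wherever PGE2 was present.

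Whether PGE2 acted differently with TNFa and P3C than alone was tested as a difference of differences, the change from TNFa+P3C to the mixture minus the change from untreated to PGE2. It called 69 genes (0.54%), 30 higher (0.235%) and 39 lower (0.305%), or 45 and 33 after centring. Arg1 was at 0.146 to 85.5 CPM (median 1.91) untreated, 0 to 10.1 CPM (median 3.37) with PGE2, 0 to 6.63 CPM (median 1.81) with TNFa+P3C and 11.7 to 129 CPM (median 83.2) with the mixture, and the difference of differences was 4.78 ± 0.99 (SE, adjusted p = 0.00513). On the first and the second plate alone it was 3.7 and 3.96 and did not pass the test (adjusted p = 0.0546 and 0.173). Sprr2d was at no more than 0.935 CPM with PGE2 and 6.6 CPM with TNFa+P3C but at 6.52 to 84.3 CPM (median 72.4) with the mixture, at 4.02 ± 0.68 (SE, adjusted p = 0.000201). Ptgs2 went the other way, at 0 to 14.2 CPM (median 0.24) untreated, 0.173 to 16.4 CPM (median 1.35) with PGE2, 22.7 to 219.5 CPM (median 90.7) with TNFa+P3C and 0.763 to 35.7 CPM (median 5.94) with the mixture, at -4.12 ± 0.78 (SE, adjusted p = 0.00183). Nrxn2 and Prss50 had the same pattern (-4.94 and -4.84). Ptgs2, at a median of 0.24 CPM untreated, had almost no room to fall with PGE2 alone. Its negative value therefore does not show that PGE2 acted differently, and the same holds for other genes with that pattern. Mmp8 and S100a6 were at 4.8 and 4.66. On the second plate alone, Ptgs2, Nrxn2, Prss50 and S100a6 lost the call. For Mmp8 the first plate alone gave 1.6 (adjusted p = 0.639), and the call was lost when any of 6 single cultures was left out. The values for Cwc25 and Fbn2 (4.34 and -6.93) were near 0 on the first plate alone, at -0.10 and -0.20. Gm17615 (-4.61) lost its call under most other settings. The number called ranged from 39 to 157 when single cultures were left out, lowest without PGE2 replicate 5 and highest without TNFa+P3C replicate 2.

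The mixture against TNFa+PGE2, of the same labelled dose, asks what differed with P3C. On the second plate they shared no library pool, so there pool and P3C cannot be told apart. On the first, mixture replicates 3 and 4 were in the pool of TNFa+PGE2 and replicates 1 and 2 in another. The mixture was there in edge wells and TNFa+PGE2 in middle wells, except TNFa+PGE2 replicate 4, which was in an edge well. The comparison called 244 genes (1.91%), 144 higher (1.13%) and 100 lower (0.782%), all in the same direction on both plates. The second plate alone called 28 genes. Pim2 was at 0 to 33.9 CPM (median 3.74) with TNFa+PGE2 and 252 to 724 CPM (median 323) with the mixture. The groups were apart by a mean of 41-fold and 5.99 ± 0.79 (SE, adjusted p = 7.57e-08). Adm (adrenomedullin, a vasodilator peptide) was at 0 to 1.55 CPM (median 0.65) and 12.9 to 82.6 CPM (median 51.9), without overlap, at 4.79 ± 0.45 (SE, adjusted p = 1.93e-12). Ndrg1, a gene induced by hypoxia, rose by 4.77, Slamf9 by 4.72 and Sprr2d by 5.09. Tnf was at 17.8 to 165 CPM (median 118) with TNFa+PGE2 and 327 to 783 CPM (median 546) with the mixture, without overlap, at 2.66 ± 0.67 (SE, adjusted p = 0.0116). Ccl3 and Ccl4 rose by 3.71 and 3.09, and Nfkbiz by 3.61. Of 15 stress-response genes 5 rose and 0 fell, with a median of 1.06 (-0.02 over all genes): Chac1, Asns, Trib3, Atf3 and Atf4, by 4.15, 2.78, 2.27, 1.89 and 1.06. Of 107 YE_turquoise genes, 37 were higher and 0 lower.

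Some inflammatory genes were lower with P3C present. Il1b was at 99.2 to 727 CPM (median 482) with TNFa+PGE2 and 22.1 to 114 CPM (median 74.5) with the mixture, with overlap, and fell to -2.18 ± 0.58 (SE, adjusted p = 0.0201). Il18 fell without overlap (-2.91), and the lectin Clec4e fell with overlap (-2.79). Cfb, factor B of the alternative complement pathway, was at 39 to 689.8 CPM (median 151) and 0.873 to 25.4 CPM (median 13). The groups were apart, at -4.16 ± 0.71 (SE, adjusted p = 3.75e-05). Nfkbie, another IκB protein, fell to -4.33 ± 0.68 (SE, adjusted p = 6.53e-06), and F630028O10Rik (an antisense RNA in the annotation), H2-M2 and Ppp1r12b were the remaining named falls, at -4.23, -4.05 and -3.93. Arg2 and Ass1, which handle arginine and citrulline, fell as well (-2.6 and -2.49). Marco and Mmp9, the leading genes against untreated cultures, did not pass the test here. Marco was at 311 to 4914 CPM (median 2598) with TNFa+PGE2 and 1241 to 3193 CPM (median 2654) with the mixture, a difference of -0.02 ± 0.57 (SE, adjusted p = 0.995), and Mmp9 differed by 0.14 ± 0.52 (SE, adjusted p = 0.971), so neither was shown to differ once TNFa and PGE2 were present together.

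Fewest genes were called against P3C+PGE2, which lacked TNFa, with 44 (0.344%), 26 higher (0.203%) and 18 lower (0.141%), or 35 and 15 after centring. Without the P3C+PGE2 culture that stood apart (replicate 7) the count was 23, with 12 higher and 11 lower, so both values are given for each gene named. Saa3 was at 34.9 to 347 CPM (median 284) with P3C+PGE2 and 2281 to 3635 CPM (median 2956) with the mixture. The groups were apart, at 3.76 ± 0.66 (SE, adjusted p = 0.000315) and at 3.33 without that culture. Lcn2 was at 8.81 to 35.7 CPM (median 21.4) and 98.4 to 275 CPM (median 162), also apart, at 2.96 ± 0.51 (SE, adjusted p = 0.000266) and 2.97 without it. For both, P3C alone had more, with means of 8145 CPM for Saa3 and 578 CPM for Lcn2 against 2913 and 174 with the mixture. Cp (ceruloplasmin, a copper oxidase of the acute phase) had the same order, at 499 CPM with P3C, 14 with P3C+PGE2 and 123 with the mixture, and rose by 3.38 against P3C+PGE2, or 2.96 without the culture. Prickle1 rose by 3.98 (3.81 without it), Cd300e by 3.01 (2.51) and Cd274, the inhibitory ligand PD-L1, by 2.49 (2.49). Mmp9, Traf1 and Lif rose over all cultures (2.29, 2.68 and 2.03) and lost the call without it, at 2.01, 2.51 and 1.89.

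Apoe, Gpnmb and Trem2 of the disease-associated list were lower with TNFa added. Apoe was at 11326 to 23334 CPM (median 11970.1) with P3C+PGE2 and 2407 to 6738 CPM (median 2873) with the mixture. No culture overlapped, and the difference was -1.9 ± 0.34 (SE, adjusted p = 0.000391), or -1.76 without replicate 7. Gpnmb was at 1776 to 4696 CPM (median 1979) and 554 to 983 CPM (median 632), without overlap, at -1.79 ± 0.25 (SE, adjusted p = 2.60e-06), or -1.62 without it. Trem2 fell over all cultures (-1.02) and lost the call without that culture (-1.0). Trf (transferrin) fell to -2.1 ± 0.28 (SE, adjusted p = 2.60e-06) and to -2.06 without it. Rcbtb2, Cd300a and Syngr1 were at -2.25, -2.25 and -1.91, and at -2.01, -2.13 and -1.80 without it. Cd300a and Syngr1 lost the call when only the conditions compared were fitted, and Syngr1 also without mixture replicate 7. On the second plate alone Rcbtb2, Cd300a, Syngr1 and Trf lost the call, as did Lcn2, Cp and Cd300e. These 3 disease-associated genes of 18 compare with 0.141% of all genes called lower, and the list's median was -0.63.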

How the data were processed

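Expression in 71 cultures of 8 conditions at 72 h was taken from the deposited culture table. Per the study's methods and the submitters' processing notes, salmon 0.7.1 assigned reads to Ensembl mouse transcripts (the notes also list build mm8), and the authors summed these by gene and deposited CPM, which the paper calls TPM. The authors had removed cultures of low depth. The values of a culture summed to 997557 to 999820, and 74.5% or more of its low values lay within 0.1 of a whole read, too few to rebuild counts, so the study's negative binomial model was not refitted. Depth was taken from the step between low values. A CPM of 1 rests on few reads, and no interval was attached to single values. The isolated-mouse table was not used here, and neither was any comparison of the authors.

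Values were tested as log2(CPM + 1) with limma 3.58.1 (R 4.3.3, eBayes with trend) in 1 fit with a mean for each of the 8 conditions, over genes that exceeded 5 CPM in 4 or more cultures, with Benjamini-Hochberg adjustment over all of them. Differences are between group means of these log values and come out too small for genes of few CPM. Folds are ratios of mean CPM. No covariate entered the main fit, and plate and library pool, read from the table's header, were tried as terms. The fit was tested on simulated data with independent noise and no plate or pool differences, so this does not show how it fares where plates differ. Of 200 genes given a log2 change of 3, it recovered 189 against untreated cultures and 122 for the difference of differences. Genes were named by rule: called, at least 20 CPM in the mean of the higher group, without overlap between cultures (not required for the difference of differences), the 12 largest each way against untreated cultures and the 5 largest each way elsewhere, plus members of gene lists. Values of some single list members are not reported here. The members, lists and tests were chosen with earlier results of these data known. Paralogs such as Cxcl1, Cxcl2 and Cxcl3, Fpr1 and Fpr2, the Clec4a and Cd300 genes and Sprr2d share sequence, and salmon divides reads among them, so values of single members are less certain. Promoters came from a RefSeq table (GRCm38.p6) with the windows of chromosome 18 left out. A window remained for 8825 of 12781 genes tested. Figures were drawn with matplotlib 3.10.9, and Python 3.11.15 with pandas 2.3.3, numpy 2.4.6 and scipy 1.17.1 did the rest.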

Additional observations from a re-analysis of the deposited data

Results flagged for a closer look

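In 12 of 99 checks of a gene in a condition of 6 to 8 cultures, 1 culture stood far from the others by Dixon's test, which chance gives in about 1 of 20. Among the mixture's cultures, replicate 7 was far above the rest for Gpr18 (136.4 CPM) and Npy (583.6 CPM), and replicate 6 for Ndrg1 (359 CPM). Replicate 5 was far above for Spp1 (99.1 CPM) and Trem3 (87.3 CPM) and far below for S100a6 (20.9 CPM). Replicate 1 was the only one above 0 for Fbn2 (0.105 CPM). In P3C+PGE2, replicate 7 was far below the rest for Saa3 (34.9 CPM) and far above for Apoe (23334 CPM). In TNFa+P3C, replicate 7 was far above for Avil (136.3 CPM). In TNFa+PGE2, replicate 8 was far above for Ndrg1 (21.2 CPM) and below for Slamf9 (0 CPM). Checks that share a culture are not independent.

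Over all cultures, the change with PGE2 was called as different with and without TNFa and P3C in the 10 named genes below, tested as a difference of differences. It was larger with TNFa and P3C for Mmp8 (4.80, adjusted p = 0.0276), Arg1 (4.78, adjusted p = 0.00513), S100a6 (4.66, adjusted p = 0.00598), Cwc25 (4.34, adjusted p = 0.0192) and Sprr2d (4.02, adjusted p = 0.000201). It was lower for Fbn2 (-6.93, adjusted p = 0.00105), Nrxn2 (-4.94, adjusted p = 0.000197), Prss50 (-4.84, adjusted p = 0.0145), Gm17615 (-4.61, adjusted p = 0.049) and Ptgs2 (-4.12, adjusted p = 0.00183). Ptgs2 was near 0 in untreated cultures, so a fall with PGE2 alone could hardly show. The gene with the largest of these, Fbn2, was near 0 in untreated cultures and in the mixture, with PGE2 alone at 0 to 132 CPM (median 27.7) and TNFa+P3C at 0 to 356 CPM (median 14.6). On the first plate alone its difference of differences was -0.20. The calls for Mmp8, Arg1, Cwc25, Fbn2 and Gm17615 were lost on the first plate alone. Those for Arg1, S100a6, Nrxn2, Prss50 and Ptgs2 were lost on the second plate alone.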

How the results depend on the processing

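Under 16 planned or added alternatives the count against untreated cultures stayed within 1.5 times of 973, except with an exact rank-sum test and Bonferroni correction (236, 170 higher and 66 lower) and on each plate alone (2137 and 284). The plates alone were added after the data were seen. They gave 559 and 10 genes against P3C, 228 and 5 against P3C+PGE2, 421 and 29 against TNFa+P3C, 920 and 28 against TNFa+PGE2, and 244 and 28 for the difference of differences, first plate and second plate in turn. With plate as a term these counts were 116, 79, 220, 398 and 112 (1238 against untreated), and with plate as a random effect 106, 74, 210, 385 and 109. Pool as a random effect gave 120 against P3C and 78 against P3C+PGE2. Fitting only the conditions compared gave 14 against P3C+PGE2 and 67 against TNFa+P3C. Testing only genes above 5 CPM in at least 20 cultures gave 38 against P3C and 38 for the difference of differences, which was 115 with a pseudocount of 5 and 38 with only the plates that hold the mixture.

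Leaving out 1 culture at a time gave 793 to 1015 genes against untreated cultures, 49 to 65 against P3C, 23 to 47 against P3C+PGE2 (23 without P3C+PGE2 replicate 7), 88 to 159 against TNFa+P3C (88 without mixture replicate 2 and 89 without replicate 4), 214 to 245 against TNFa+PGE2 and 39 to 157 for the difference of differences. That last count left the 1.5-fold range without None replicate 14 (110), PGE2 replicates 1 to 5 (122, 148, 144, 125 and 39), TNFa+P3C replicates 1, 2, 3 and 6 (156, 157, 130 and 44) and mixture replicate 3 (43). Of 292 results for single genes, 287 kept the call with plate as a term, 264 on the first plate alone and 108 on the second, and 227 whichever culture was left out. Signs turned in Cwc25 for the difference of differences on the first plate (-0.10), and on the second plate against untreated cultures in Atf4 (-0.18), Chac1 (-0.17), Gpr34 (0.20) and Txnrd1 (-0.00312). The cause was not tested. The second plate holds 3 mixture cultures and 2 to 5 of each other group. No paired analysis was possible because the labels give no replicate numbers.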
